A study of Mus musculus with 14 samples.

Results

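Transcripts of 10 genes of the piRNA pathway and its germline granules were followed in full-grown mouse oocytes that lack AGO2, lack its catalytic activity, or lack Dicer. The genes were *Piwil1*, *Piwil2*, *Piwil4*, *Mov10l1*, *Ddx4*, *Mael*, *Tdrd1*, *Tdrd9*, *Tdrkh* and *Asz1*. They were chosen as a list of names, with earlier results of these data known. A counted transcript was found for 10 of 10 among the 20337 genes named in the count tables. Where a gene had more than 1 RefSeq transcript, the one with the highest mean count stood for it. The 14 RNA-seq libraries held 20 full-grown oocytes each, still intact at the germinal vesicle (GV) stage and taken from females of 4 to 6 weeks, 48 h after 5 IU of equine chorionic gonadotropin. The *Ago2* fl/fl group (3 libraries) carries loxP-flanked *Ago2* without Cre and served as control. The *Ago2* ADH group (3 libraries) is *Ago2* fl/ADH; Cre/+, in which Zp3-Cre removes the floxed allele in oocytes and leaves an allele whose DDH catalytic motif reads ADH. The *Ago2* null group (2 libraries) is *Ago2* fl/fl; Cre/+ with the same Cre. *Dicer* KO oocytes (3 libraries) are an oocyte-specific null, and *Dicer* WT oocytes (3 libraries) are their controls. Because Cre is driven by the *Zp3* promoter, the genes are lost in growing oocytes and not before. The mice had a mixed background, mostly C57BL6, and each library pooled the oocytes of several animals, which were not followed singly.

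piRNAs are small RNAs bound by PIWI proteins, which guide them to transposon transcripts in germ cells. They are cut from long single-stranded precursors without Dicer, and much of their processing takes place in perinuclear granules, the nuage, and at the surface of mitochondria. In mice, loss of pathway genes typically arrests spermatogenesis while females stay fertile. Growing oocytes also make endo-siRNAs, which are cut by Dicer and act through AGO2. RNA-seq of bulk oocytes measures the transcripts of these genes, neither piRNAs nor proteins.

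The total count on transcripts lay between 29380403 and 58285057 per library, where 3 counts correspond to 0.0515 to 0.102 CPM (counts per 1000000 counts of a library), the limit a count of 0 allows by counting error alone. *Ago2* transcripts were at 24.6 ± 0.766 CPM in *Ago2* fl/fl (SD, n = 3), 13.02 ± 0.683 in *Ago2* ADH (n = 3) and 6.23 ± 1.32 in *Ago2* null oocytes (n = 2). They were also 1.47-fold lower in *Dicer* KO oocytes, at 17.7 ± 2.69 CPM against 26.1 ± 1.28 in *Dicer* WT (n = 3 each, edgeR adjusted p = 0.000545). *Dicer1* counts rose in the libraries labelled *Dicer* KO, to 1815 ± 132 CPM from 758 ± 18.1 in *Dicer* WT (n = 3 each), and a count over a whole transcript does not check the removal of an exon. *Dicer1* also rose 1.60-fold in *Ago2* ADH and 1.51-fold in *Ago2* null oocytes (edgeR adjusted p = 2.11e-10 and 6.41e-08). The 12 oocyte markers were all present and summed to 15200 to 16330 CPM in *Ago2* fl/fl, 15820 to 17140 in *Ago2* ADH, 15960 to 18080 in *Ago2* null, 12400 to 12610 in *Dicer* WT and 11710 to 12160 in *Dicer* KO libraries. Of the 12, 6 rose and 3 fell in *Ago2* ADH, 6 rose and 1 fell in *Ago2* null, and 1 rose and 3 fell in *Dicer* KO oocytes (edgeR, FDR 1%). Of all transcripts tested, 20.5% rose and 20.1% fell in *Ago2* ADH, 18.1% and 19.1% in *Ago2* null, and 16.7% and 17.8% in *Dicer* KO oocytes. The 12 granulosa and cumulus markers summed to 78.2 to 85.1 CPM in *Ago2* fl/fl, 66.7 to 72.2 in *Ago2* ADH, 58.2 to 62.5 in *Ago2* null, 96.5 to 103 in *Dicer* WT and 81.4 to 84.7 in *Dicer* KO libraries. Most of it was *Cyp19a1* and *Nr5a2*, without which the sums were 5.69 to 17.7 CPM, and *Foxl2* stayed under 10 counts in every library. Of 9 granulosa markers tested 1 rose and 2 fell in *Ago2* ADH, of 10 tested 1 fell in *Ago2* null, and of 7 tested 2 fell in *Dicer* KO oocytes. These counts stand beside the same shares of all transcripts. *Cyp11a1*, a steroidogenic enzyme, was at 4.54 ± 2.67 CPM in *Ago2* ADH against 1.41 ± 0.512 in *Ago2* fl/fl, and at 0.165 ± 0.103 CPM in *Dicer* KO against 1.24 ± 0.167 in *Dicer* WT (n = 3 each, edgeR adjusted p = 0.00022 and 0.000144). It was named after its values were seen. The part of either marker list in the results was not tested. The 8 theca and stroma markers summed to 0.671 to 2.52 CPM, and 6 counted blood and immune markers to 32.4 to 44.0 CPM, nearly all *Pecam1*, with *Ptprc*, *Lyz2* and *Hba-a1* under 10 counts. Reads with several alignments are tallied apart and enter no gene's count. They numbered 55.7 to 59.7 per 100 transcript counts in *Ago2* fl/fl, 158 to 166 in *Ago2* ADH, 157 to 166 in *Ago2* null, 38.8 to 53.6 in *Dicer* WT and 93.9 to 119 in *Dicer* KO libraries, and their part in the results below was not tested. By the names of the deposited tables the 3 *Ago2* genotypes ran in separate lanes, and an effect of the lane cannot be told apart from one of the genotype.

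Relative to transcript length, the 10 genes spanned a wide range in control oocytes. In *Ago2* fl/fl oocytes *Tdrd1*, a Tudor-domain scaffold that binds PIWI proteins, led with 158 ± 11.96 CPM per kb (SD, n = 3), and 1.69% of 20241 genes with a known length were higher. *Asz1*, which anchors the machinery at mitochondria, followed with 62.9 ± 6.28 CPM per kb, then *Mael*, a nuage protein, with 54.9 ± 1.38, *Tdrkh*, a Tudor protein of the mitochondrial surface, with 19.8 ± 0.833, and *Ddx4*, the germline RNA helicase also called VASA, with 8.94 ± 0.201. *Piwil1*, a PIWI protein, and *Tdrd9*, a nuage helicase with a Tudor domain, were at 3.79 ± 0.0258 and 3.59 ± 0.215 CPM per kb and overlapped between libraries. Below them came *Mov10l1*, the helicase that prepares piRNA precursors, with 2.00 ± 0.444 CPM per kb, and *Piwil2*, the PIWI protein of early germ cells, with 0.479 ± 0.0479. *Piwil4*, the nuclear PIWI protein, had a count of 0 in all 3 libraries. In *Dicer* WT oocytes the order was the same, but the ranges of *Asz1* and *Mael* overlapped, as did those of *Piwil1*, *Tdrd9* and *Mov10l1* at 3.26, 3.25 and 3.20 CPM per kb. In *Ago2* ADH, *Ago2* null and *Dicer* KO oocytes *Mael* stood above *Asz1*, at 98.0, 94.1 and 109 against 56.6, 54.3 and 61.5 CPM per kb, and the libraries did not overlap. *Ddx4* also stood above *Tdrkh* in these 3 groups, although in *Dicer* KO oocytes their ranges overlapped.

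**Figure D1:**
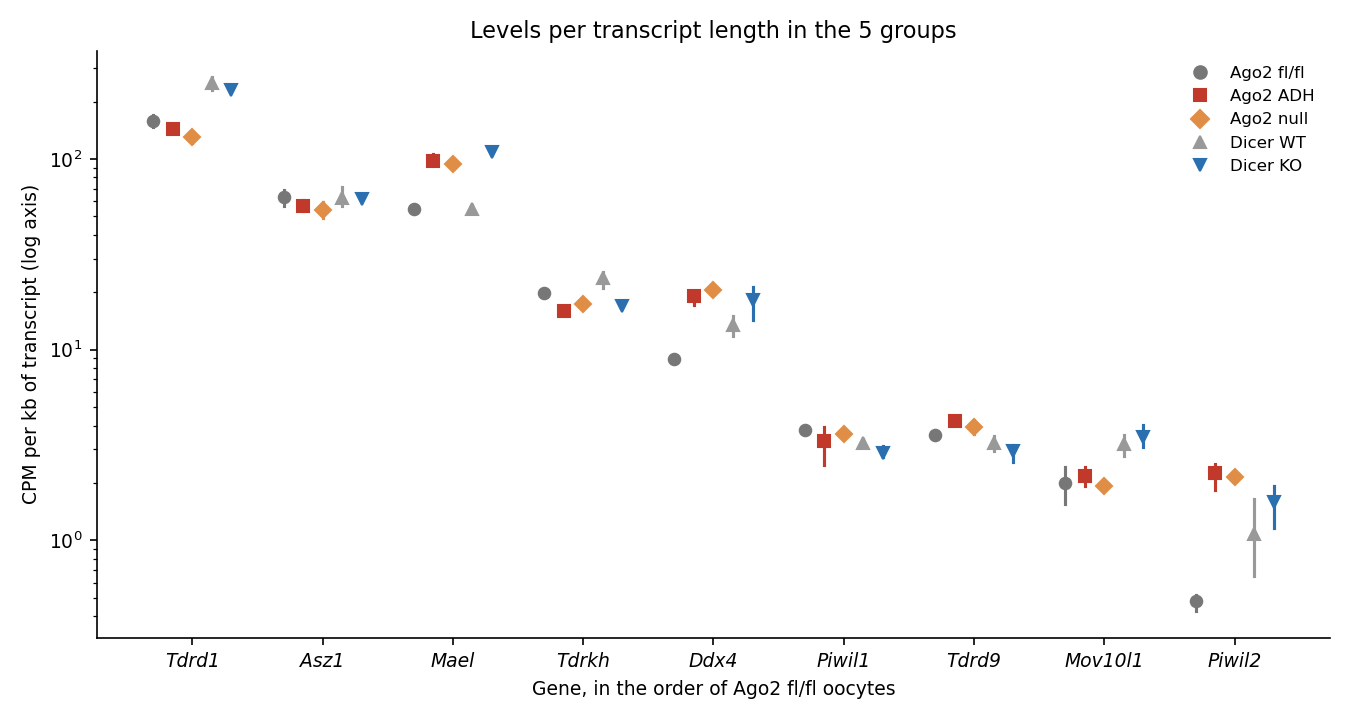
Level of 9 genes in CPM per kb of transcript (log axis) in the 5 groups; symbols are means and vertical lines join the lowest and highest library. *Tdrd1* lies above all others in every group, *Mael* moves above *Asz1* in the 3 mutant groups, and *Piwil2* is lowest in *Ago2* fl/fl oocytes at 0.479 CPM per kb. *Piwil4*, with 0 to 4 counts per library, is not drawn.

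Against *Ago2* fl/fl oocytes, *Ago2* ADH oocytes had more *Piwil2*, *Ddx4* and *Mael* and less *Tdrkh*. Of 9 genes that passed the filter on low counts, 3 rose and 1 fell at a false discovery rate (FDR) of 1% (edgeR's quasi-likelihood test), while 20.5% of the 18835 transcripts tested rose and 20.1% fell. Since libraries were made from bulk oocytes, fewer cells with a transcript and less of it per cell cannot be told apart. In *Ago2* null oocytes, measured against the same 3 control libraries, *Piwil2*, *Ddx4* and *Mael* rose and 0 of 9 fell, beside 18.1% higher and 19.1% lower among 19236 transcripts. In *Dicer* KO against *Dicer* WT oocytes *Ddx4* and *Mael* rose and *Tdrkh* fell, beside 16.7% higher and 17.8% lower among 18570 transcripts. The median log2 fold change of the 9 genes was 0.17, -0.03 and -0.03 in the 3 comparisons, and that of all transcripts tested was 0.01, 0.00 and -0.00. The 4 genes that passed the test in at least 1 comparison thus stood beside 5 that did not pass it in any, and *Piwil4* was too low to be tested.

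**Figure D2:**
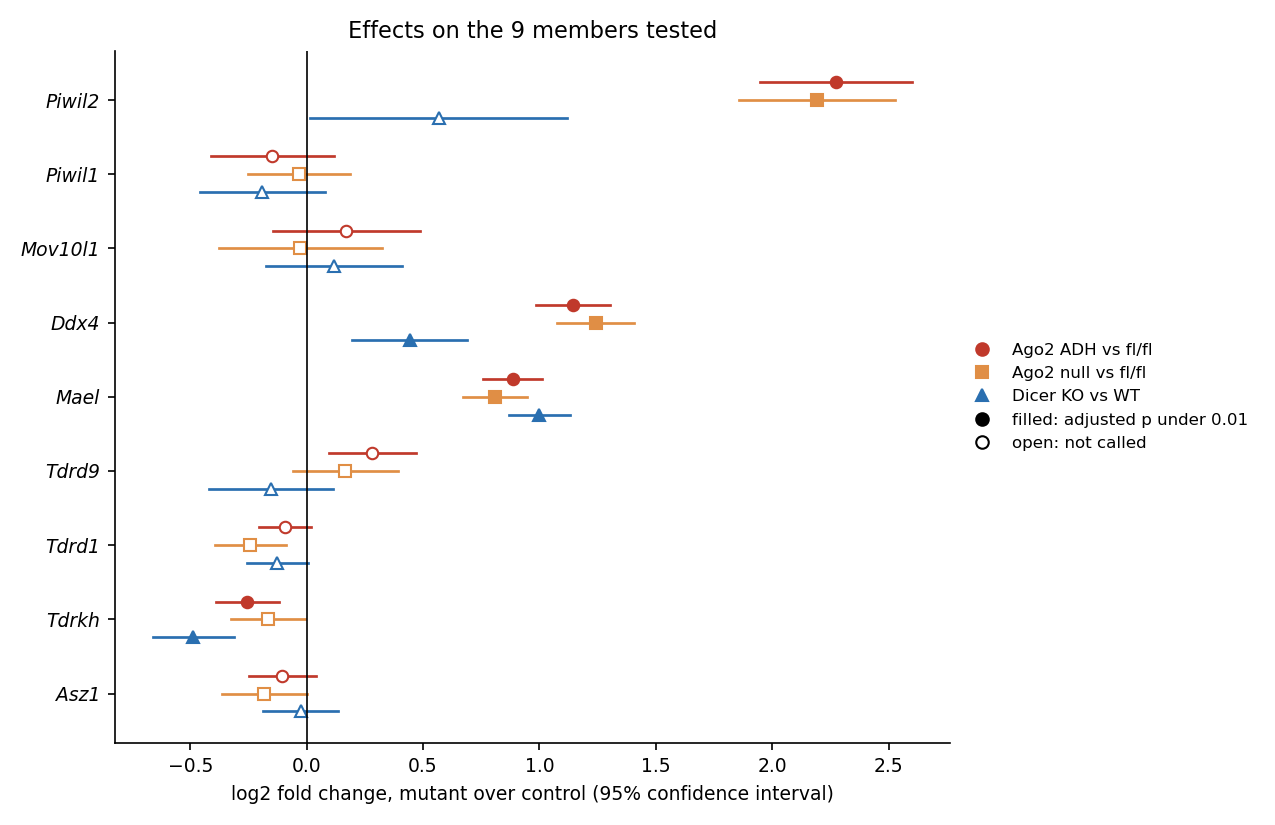
Log2 fold change (horizontal axis) of the 9 genes tested, mutant over control, with 95% confidence intervals, in *Ago2* ADH and *Ago2* null oocytes against the same *Ago2* fl/fl libraries and in *Dicer* KO against *Dicer* WT oocytes. Filled symbols have an adjusted p under 0.01; *Piwil2* lies at 2.28, 2.19 and 0.57, and *Mael* at 0.88, 0.81 and 1.00.

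The upstream windows of the genes that passed the test are shown to let the genes be compared on their sequence as well as their counts. Of the 10 genes, 9 had a RefSeq window from 250 bases before to 50 after a transcript start (GRCm38.p6), and *Piwil2* was not among them. The windows shown are *Ddx4* at chr13:112652261-112652560 on the minus strand, *Mael* at chr1:166238695-166238994 on the minus strand and *Tdrkh* at chr3:94412994-94413293 on the plus strand, each written 5′ to 3′ along its gene. Capitals mark the letters CACGTG (an E-box), GCGGGAA (an E2F motif) and CCAAT, the last 2 also as their reverse complement.
Ddx4: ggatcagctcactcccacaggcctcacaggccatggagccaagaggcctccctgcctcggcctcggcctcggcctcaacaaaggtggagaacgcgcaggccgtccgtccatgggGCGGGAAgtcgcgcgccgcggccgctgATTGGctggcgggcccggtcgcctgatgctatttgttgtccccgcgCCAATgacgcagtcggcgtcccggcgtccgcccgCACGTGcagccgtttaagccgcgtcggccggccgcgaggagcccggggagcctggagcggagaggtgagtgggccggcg
Mael: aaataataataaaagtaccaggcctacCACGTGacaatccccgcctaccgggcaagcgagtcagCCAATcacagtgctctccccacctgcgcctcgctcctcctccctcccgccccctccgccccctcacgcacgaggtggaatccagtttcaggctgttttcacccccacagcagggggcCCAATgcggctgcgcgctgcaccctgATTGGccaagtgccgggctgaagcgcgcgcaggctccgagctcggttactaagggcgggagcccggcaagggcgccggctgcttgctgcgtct
Tdrkh: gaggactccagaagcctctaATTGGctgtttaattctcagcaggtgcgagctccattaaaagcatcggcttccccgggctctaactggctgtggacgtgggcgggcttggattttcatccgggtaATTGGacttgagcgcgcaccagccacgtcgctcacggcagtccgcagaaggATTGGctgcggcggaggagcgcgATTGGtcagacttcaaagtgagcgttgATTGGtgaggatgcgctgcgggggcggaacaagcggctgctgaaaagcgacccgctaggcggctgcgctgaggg
The E-box letters were found in 6 of the 9 genes, namely *Piwil1*, *Ddx4*, *Mael*, *Mov10l1*, *Tdrd1* and *Tdrd9*. By window, they were in 7 of the 12 windows of these genes and in 7.15% of all 32851 windows. Among windows with at least 10 CpG dinucleotides, 7 of 10 windows of these genes held it, against 10.9% of all 14281 such windows. The 7 include overlapping windows of *Tdrd1* (chr19:56825959-56826258 and chr19:56826025-56826324) that hold the same E-box, so that site is counted repeatedly. The genes with an E-box include 2 that rose and 4 that did not pass the test, and *Tdrkh* and *Asz1* have none. CCAAT, present in 37.4% of all windows, occurred 5 times in *Tdrkh*, 3 times in *Mael* and 2 times in *Ddx4*, and GCGGGAA, present in 4.60%, occurred in *Ddx4*. CCAAT also occurred 2 times each in *Mov10l1* and *Tdrd9* and 1 time in *Piwil1*, and was absent from *Tdrd1*, *Asz1* and *Piwil4*. TGACGTCA (a CRE motif, 1.79% of windows) was in none of the 9 genes, and AACNGTT (a MYB motif, 4.45%) was in 1 of the 2 windows of *Piwil4*. Both strands were searched, the motifs shared no base in these windows, and CpG dinucleotides numbered 38 in *Ddx4*, 25 in *Tdrkh* and 24 in *Mael*, where the median window has 7. In the genes not called, *Mov10l1* had 20, *Piwil1* 18, *Asz1* 17 and *Tdrd9* 10. The windows of *Tdrd1* had 25, 20 and 3, and those of *Piwil4*, which was not tested, 11 and 0.

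Among the PIWI genes, *Piwil2* (NM_021308, chr14:70372477-70436898) had the largest fold change of the 9 genes tested in both *Ago2* comparisons. Its level was 2.55, 2.09 and 2.42 CPM in the 3 controls (*Ago2* fl/fl), 11.7, 8.99 and 12.4 in *Ago2* ADH, and 9.94 and 11.1 in *Ago2* null. All 5 mutant libraries lay above all 3 controls, with 492 to 639 reads against 124 to 148. The level rose 4.84-fold in *Ago2* ADH (95% confidence interval 3.86 to 6.07, log2 fold change 2.28 ± 0.155 (SE), edgeR adjusted p = 5.1e-10) and 4.57-fold in *Ago2* null oocytes (3.63 to 5.76, edgeR adjusted p = 6.84e-09). In the other series *Piwil2* was at 8.07, 3.21 and 4.60 CPM in *Dicer* WT and at 5.72, 8.32 and 9.48 CPM in *Dicer* KO libraries. These groups overlapped, since *Dicer* WT replicate 1 stood well above the other two controls. The difference of 0.57 ± 0.262 on the log2 scale did not pass the test (interval 0.02 to 1.12, edgeR adjusted p = 0.0865). With 1 library left out in turn it ran from 0.30 to 1.00, with edgeR adjusted p from 0.00311 to 0.377. It passed only without *Dicer* WT replicate 1 (1.00, edgeR adjusted p = 0.00311). The control groups themselves lay at 2.35 ± 0.236 and 5.29 ± 2.50 CPM (n = 3 each), a difference that cannot be told apart from the separate series of libraries.

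The other PIWI genes were not called in any comparison. *Piwil1* (NM_021311, chr5:128736071-128755474), whose protein acts in late spermatogenesis, was at 15.2 to 15.3 CPM in *Ago2* fl/fl, 10.03 to 15.8 in *Ago2* ADH, 13.97 to 15.2 in *Ago2* null, 12.4 to 13.6 in *Dicer* WT and 10.96 to 12.5 in *Dicer* KO libraries. Mutants and controls overlapped in each comparison, and the intervals of its log2 fold change were -0.41 to 0.12, -0.25 to 0.19 and -0.46 to 0.08 in *Ago2* ADH, *Ago2* null and *Dicer* KO oocytes. *Piwil4* (NM_177905, chr9:14701776-14740672), whose protein guides DNA methylation of transposons in fetal male germ cells, had counts of 0, 0 and 0 in *Ago2* fl/fl, 0, 4 and 1 in *Ago2* ADH, 2 and 1 in *Ago2* null, 4, 0 and 0 in *Dicer* WT, and 1, 0 and 0 in *Dicer* KO libraries. At these depths no difference was detectable for it. *Mov10l1* (NM_031260, chr15:88982891-89055152), which feeds precursors to the PIWI proteins, was at 6.26 to 9.85 CPM in *Ago2* fl/fl, 7.82 to 9.85 in *Ago2* ADH, 7.75 and 7.81 in *Ago2* null, 11.2 to 14.5 in *Dicer* WT and 12.6 to 16.4 in *Dicer* KO libraries. Its log2 fold change had intervals of -0.15 to 0.49, -0.38 to 0.32 and -0.18 to 0.41 and did not pass the test.

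Of the nuage genes, *Ddx4* (NM_001145885, chr13:112598333-112652633) was at 26.7, 26.5 and 27.6 CPM in *Ago2* fl/fl, 59.5, 51.9 and 61.1 in *Ago2* ADH, and 65.8 and 58.7 in *Ago2* null libraries. The mutant libraries did not overlap the controls. *Ddx4* rose 2.21-fold in *Ago2* ADH (1.98 to 2.46, log2 fold change 1.14 ± 0.0757, edgeR adjusted p = 3.27e-10) and 2.36-fold in *Ago2* null oocytes (2.11 to 2.65, edgeR adjusted p = 1.21e-09). In *Dicer* WT it was at 45.2, 40.5 and 35.5 CPM and in *Dicer* KO at 43.1, 57.9 and 64.0 CPM. *Dicer* KO replicate 1 fell within the control range. The 1.36-fold rise passed the test (1.14 to 1.61, log2 fold change 0.44 ± 0.118, edgeR adjusted p = 0.00479) but no longer did without *Dicer* WT replicate 2 (0.44, adjusted p = 0.024 by edgeR), *Dicer* WT replicate 3 (0.36, 0.0343), *Dicer* KO replicate 2 (0.41, 0.0262) or *Dicer* KO replicate 3 (0.32, 0.0386). A second transcript of *Ddx4* carried 97.8% to 99.1% of the reads of the one given, since reads are counted on every transcript that contains them.

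*Mael* (NM_175296, chr1:166201385-166238744) rose in *Ago2* ADH, *Ago2* null and *Dicer* KO oocytes alike in direction. It was at 83.0, 87.2 and 84.3 CPM in *Ago2* fl/fl, 145, 145 and 165 in *Ago2* ADH, 152 and 139 in *Ago2* null, 82.4, 81.8 and 88.5 in *Dicer* WT, and 172, 170 and 165 in *Dicer* KO libraries. No mutant library overlapped a control, and the control groups lay close together at 84.8 ± 2.13 and 84.2 ± 3.70 CPM. *Mael* rose 1.85-fold in *Ago2* ADH (1.69 to 2.01, log2 fold change 0.88 ± 0.0598, edgeR adjusted p = 4.45e-10), 1.75-fold in *Ago2* null (1.59 to 1.92, edgeR adjusted p = 2.28e-08) and 2.00-fold in *Dicer* KO oocytes (1.82 to 2.19, log2 fold change 1.00 ± 0.0629, edgeR adjusted p = 1.99e-10).

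*Tdrd1* (NM_001002238, chr19:56826171-56870012), the most abundant of the 10 per length, was at 722, 771 and 839 CPM in *Ago2* fl/fl, 688, 715 and 716 in *Ago2* ADH, 691 and 596 in *Ago2* null, 1132, 1251 and 1316 in *Dicer* WT, and 1158, 1129 and 1112 in *Dicer* KO libraries. The *Ago2* mutant libraries lay below their controls, and the *Dicer* groups overlapped. The log2 fold change was -0.09 ± 0.0528 in *Ago2* ADH, -0.24 ± 0.0721 in *Ago2* null and -0.13 ± 0.0625 in *Dicer* KO oocytes, with edgeR adjusted p of 0.152, 0.0107 and 0.11. The *Ago2* null value passed the test without *Ago2* fl/fl replicate 1 (-0.29, edgeR adjusted p = 0.00278). With 1 library left out in turn it ran from -0.35 to -0.14. The value of -0.35 came without *Ago2* null replicate 1, a fit that rests on 1 *Ago2* null library. *Tdrd9* (NM_029056, chr12:111971488-112068854) was at 17.2, 16.2 and 18.3 CPM in *Ago2* fl/fl and at 20.4, 19.5 and 21.0 CPM in *Ago2* ADH libraries, which did not overlap. The log2 fold change of 0.28 ± 0.0889 did not pass the test at an FDR of 1% (0.09 to 0.47, edgeR adjusted p = 0.0125), but did without *Ago2* ADH replicate 2 (0.32, edgeR adjusted p = 0.00984), with at least 10 counts in every library (0.29, edgeR adjusted p = 0.00968) and by DESeq2 (0.28, DESeq2 adjusted p = 0.0062). In *Ago2* null and *Dicer* KO oocytes its intervals were -0.06 to 0.39 and -0.42 to 0.11.

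Neither gene of the mitochondrial surface was called higher in a mutant. *Tdrkh* (NM_028307, chr3:94413243-94434854), whose protein joins PIWI proteins to mitochondria for the trimming of piRNAs, was at 54.8, 51.4 and 50.7 CPM in *Ago2* fl/fl, 42.5, 41.2 and 43.4 in *Ago2* ADH, and 47.8 and 43.4 in *Ago2* null libraries. In *Dicer* WT it was at 67.6, 55.9 and 65.4 CPM and in *Dicer* KO at 44.8, 46.6 and 43.6 CPM. In each comparison the mutant libraries lay below all their controls. *Tdrkh* was 1.19-fold lower in *Ago2* ADH (log2 fold change -0.26 ± 0.0645, edgeR adjusted p = 0.00264) and 1.40-fold lower in *Dicer* KO oocytes (-0.49 ± 0.0827, edgeR adjusted p = 8.63e-05). In *Ago2* null oocytes the value of -0.17 ± 0.0755 did not pass (-0.33 to -0.01, edgeR adjusted p = 0.0797), and the *Ago2* ADH call was lost without *Ago2* fl/fl replicate 1 (-0.23, edgeR adjusted p = 0.0134). The 3′ part of the *Tdrkh* locus overlaps *Oaz3* over 1468 bases, and since strand was not used in the counting, reads there cannot be told apart. *Oaz3* had a mean count of 107 per library. *Asz1* (NM_023729, chr6:18050964-18109061) was at 98.2 to 120 CPM in *Ago2* fl/fl, 92.8 to 105 in *Ago2* ADH, 85.4 and 103 in *Ago2* null, 98.0 to 124 in *Dicer* WT and 106 to 107 in *Dicer* KO libraries. The groups overlapped, and the intervals of its log2 fold change were -0.25 to 0.04, -0.36 to 0.00 and -0.19 to 0.14. Without *Ago2* null replicate 2 the *Ago2* null value passed the test (-0.32, edgeR adjusted p = 0.00771).

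**Figure D3:**
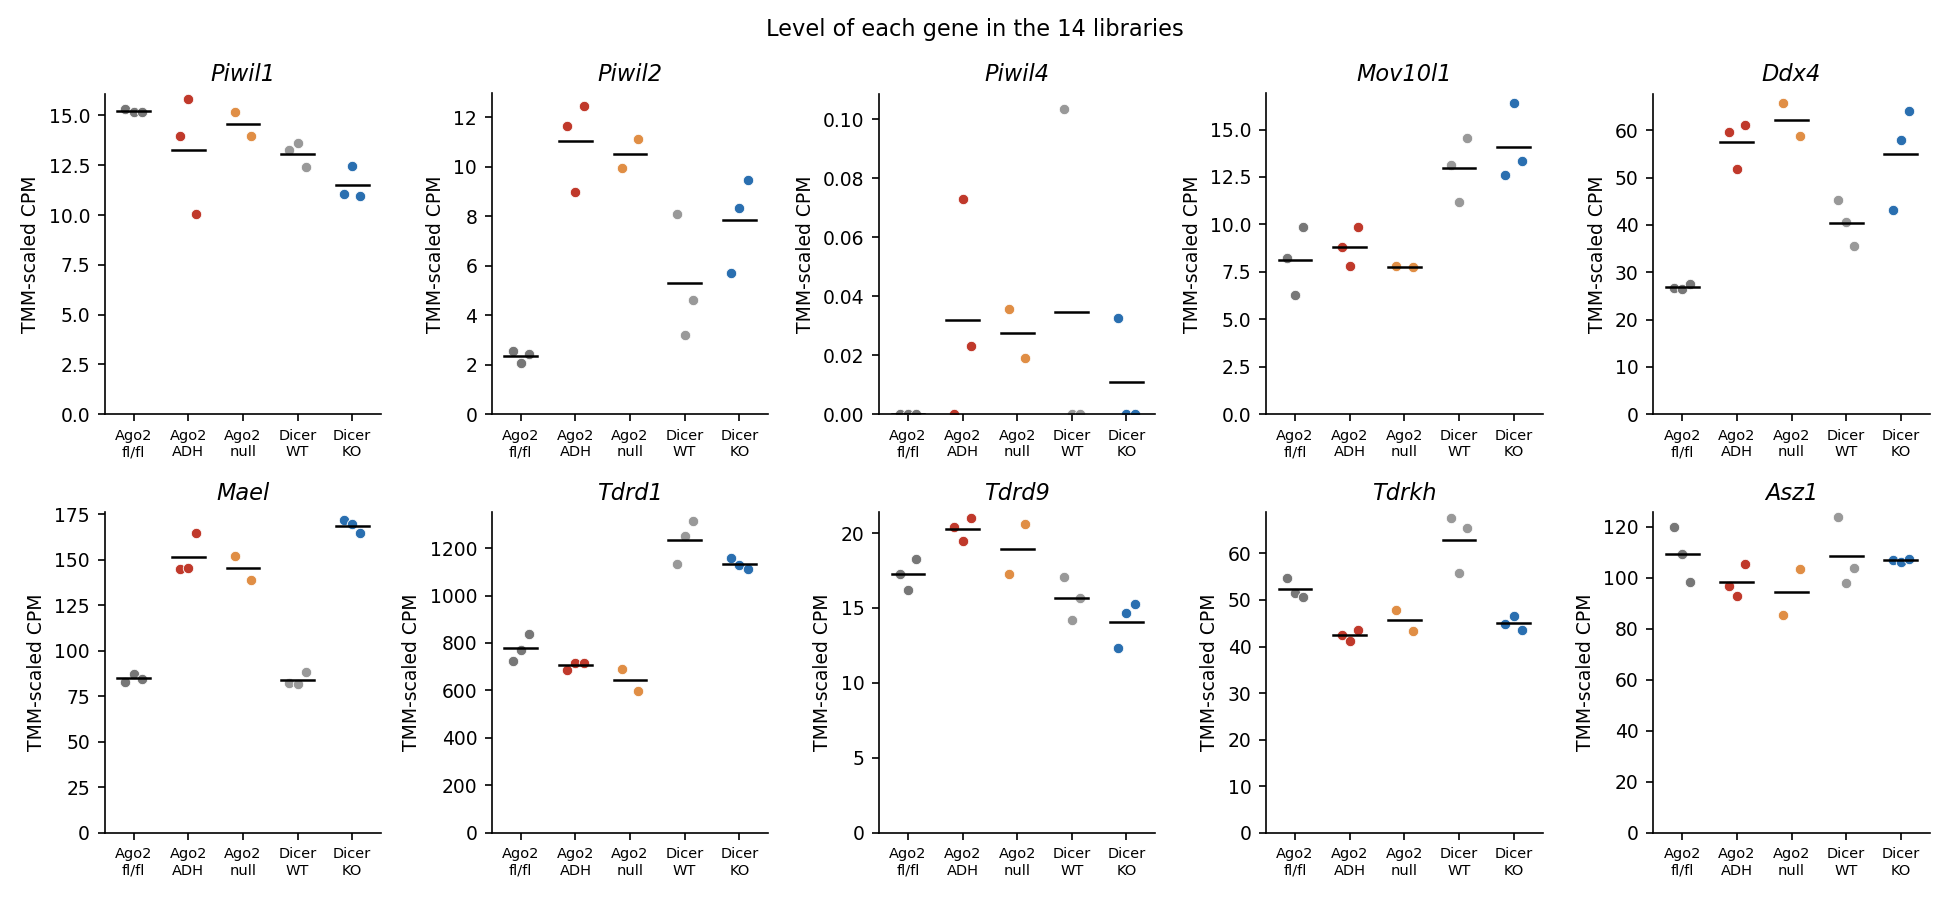
TMM-scaled CPM (vertical axis, from 0) of the 10 genes in each of the 14 libraries, by group; points are libraries and bars are group means. *Piwil2*, *Ddx4* and *Mael* of all *Ago2* mutant libraries lie above the *Ago2* fl/fl libraries, *Tdrkh* lies below, and *Dicer* WT replicate 1 at 8.07 CPM of *Piwil2* stands above its group.

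Whether loss of the AGO2 protein and loss of its catalytic activity act on these genes alike was asked by comparing *Ago2* ADH with *Ago2* null oocytes. Of 9 genes tested, 0 passed edgeR's test, and 0 had an unadjusted p under 0.05. DESeq2 also called 0. Of all 19306 transcripts 0.119% passed in either direction, *Ago2* itself among them. The log2 difference of *Piwil2* was 0.06 (interval -0.25 to 0.37), that of *Ddx4* -0.12 (-0.30 to 0.07), that of *Mael* 0.06 (-0.10 to 0.21) and that of *Tdrkh* -0.11 (-0.28 to 0.07). For the 9 genes the differences lay between -0.13 for *Piwil1* and 0.18 for *Mov10l1*. With 3 libraries against 2, these intervals, and not the missed threshold, bound the difference.

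The *Ago2* ADH and *Dicer* KO effects were compared by a test of their difference over the 4 groups. It passed for 2 of 9 genes, *Piwil2* and *Ddx4*, beside 3.55% of 19500 transcripts in either direction. The *Ago2* ADH effect on *Piwil2* exceeded the *Dicer* KO effect by 1.66 ± 0.339 on the log2 scale (0.95 to 2.36, edgeR adjusted p = 0.00291), and that on *Ddx4* by 0.65 ± 0.154 (0.33 to 0.97, edgeR adjusted p = 0.00946). The *Piwil2* call was lost without *Ago2* fl/fl replicate 2 (1.58, edgeR adjusted p = 0.0125), *Ago2* ADH replicate 1 (1.61, 0.0101), *Ago2* ADH replicate 3 (1.56, 0.0106) or *Dicer* WT replicate 1 (1.22, 0.0118). The *Ddx4* call was lost in 9 of 12 such fits, those without any 1 of the *Ago2* fl/fl libraries, *Ago2* ADH replicates 1 or 3, *Dicer* WT replicates 1 or 2, or *Dicer* KO replicates 1 or 2, where the value lay between 0.50 and 0.69. For *Mael* the difference was -0.17 ± 0.0848 (-0.34 to 0.01, edgeR adjusted p = 0.241), for *Tdrkh* 0.18 ± 0.105 (-0.04 to 0.40, edgeR adjusted p = 0.312) and for *Tdrd9* 0.38 ± 0.149 (0.07 to 0.69, edgeR adjusted p = 0.119). As levels, *Ago2* ADH oocytes had 57.5 ± 4.93 CPM of *Ddx4* and *Dicer* KO oocytes 55.0 ± 10.8, with controls at 26.9 ± 0.604 and 40.4 ± 4.85. The *Ago2* and *Dicer* libraries are separate series, so a difference between these effects cannot be told apart from one between the series.

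The genes whose log2 CPM ran most like each member's over the 14 libraries, after each series was centred on its own mean, were read from 13090 genes. For *Piwil2* they were *Adcy1* (Pearson r = 0.9746) and *Fam102b* (0.9744), for *Ddx4* *Fyttd1* (0.984) and *Chchd4* (0.983), for *Mael* *Akap12* (0.996) and *Hace1* (0.995), and for *Tdrkh* *Wdr11* (0.965) and *Recql* (0.948). For the other members tested they were *Bcl2l13* (0.904) and *Micall2* (0.874) for *Piwil1*, *Nmbr* (0.880) and *Olfr701* (0.789) for *Mov10l1*, *Exosc10* (0.936) and *G6pdx* (0.928) for *Tdrd1*, *Nadk2* and *Styx* (0.865 each) for *Tdrd9*, and *Zfp563* (0.905) and *Tex30* (0.878) for *Asz1*. Among the members themselves *Piwil2* and *Ddx4* had r = 0.956, *Ddx4* and *Mael* 0.816, *Piwil2* and *Mael* 0.775, and *Mael* and *Tdrkh* -0.887. These values describe libraries that share their groups, lanes and scaling.

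Of 23 further genes of the piRNA pathway, 22 had a counted transcript (*Spocd1* did not) and were set beside the 10. In *Ago2* ADH oocytes 3 of 22 tested rose and 3 fell, in *Ago2* null oocytes 3 rose and 3 fell, and in *Dicer* KO oocytes 4 of 21 rose and 4 fell, shares that stand beside the 16.7% to 20.5% of all transcripts given above for each direction. The median log2 fold change of these genes was 0.03, -0.01 and -0.25, beside 0.01, 0.00 and -0.00 for all transcripts tested. An unadjusted edgeR p under 0.05 was reached by 7 of 22, 6 of 22 and 14 of 21 of them. The share of all transcripts at that cutoff is not given, so these counts, and those at it below, are no result about the pathway. *Fkbp6*, *Prmt5* and *Tdrd7* rose in all 3 comparisons. *Fkbp6*, a cochaperone of PIWI loading, was at 5.98 to 6.97 CPM in *Ago2* fl/fl, 11.3 to 12.04 in *Ago2* ADH, 9.22 and 12.8 in *Ago2* null, 6.80 to 7.80 in *Dicer* WT and 10.3 to 10.8 in *Dicer* KO libraries, and its mutant and control libraries did not overlap. It rose 1.82-fold, 1.70-fold and 1.47-fold (edgeR adjusted p = 3.7e-06, 0.000454 and 0.00438). *Prmt5*, the methyltransferase that makes the arginine marks Tudor domains bind, rose 1.41-fold, 1.83-fold and 1.80-fold (edgeR adjusted p = 0.00166, 2.21e-05 and 0.000149). *Tdrd7*, a Tudor scaffold of the chromatoid body, rose 1.35-fold, 1.26-fold and 1.65-fold (edgeR adjusted p = 0.000743, 0.00945 and 0.000231).

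*Tdrd12*, *Henmt1* and *Mybl1* fell in the same 3 comparisons. *Tdrd12*, a Tudor helicase of secondary piRNA production, was at 141 to 146 CPM in *Ago2* fl/fl, 94.9 to 107 in *Ago2* ADH, 93.8 and 94.1 in *Ago2* null, 118 to 123 in *Dicer* WT and 82.4 to 90.9 in *Dicer* KO libraries, without overlap. Its log2 fold changes were -0.48, -0.58 and -0.48 (edgeR adjusted p = 6.26e-07, 5.85e-07 and 6.5e-06). *Henmt1*, which methylates the 3′ ends of piRNAs, had log2 fold changes of -0.47, -0.26 and -0.40 (edgeR adjusted p = 2.48e-05, 0.0064 and 0.000315), and *Mybl1*, the transcription factor of pachytene piRNA precursors, -0.40, -0.43 and -0.41 (edgeR adjusted p = 0.000276, 0.00029 and 2.62e-05). In *Dicer* KO oocytes *Tex15*, which acts in transposon methylation, also rose 1.38-fold (edgeR adjusted p = 0.00108) and *Tdrd5*, a Tudor protein of the nuage, had a log2 fold change of -0.25 (edgeR adjusted p = 0.0018). Some of these calls were lost when a single library was left out. In *Ago2* null oocytes *Tdrd7* lost its call without any 1 of the 5 libraries (edgeR adjusted p = 0.0121 to 0.0619) and *Henmt1* without any but *Ago2* fl/fl replicate 1 (0.0174 to 0.0391). *Fkbp6* lost it there without *Ago2* null replicate 2 (0.0209), when 3 of the 6 calls were left. In *Ago2* ADH oocytes *Prmt5* lost its call without *Ago2* fl/fl replicate 2 (edgeR adjusted p = 0.0125). In *Dicer* KO oocytes *Fkbp6* lost it without *Dicer* WT replicates 1 or 2 or *Dicer* KO replicates 1 or 2 (edgeR adjusted p = 0.0118 to 0.0214), *Tex15* without *Dicer* WT replicate 2 (0.0106) or *Dicer* KO replicate 2 (0.0145), and *Tdrd5* without *Dicer* KO replicate 2 (0.0118), when *Exd1* passed (-0.69, edgeR adjusted p = 0.00046). Between *Ago2* ADH and *Ago2* null oocytes 0 of 22 passed edgeR's test and 0 passed DESeq2's, with 2 at an unadjusted p under 0.05. In the test of the *Ago2* ADH against the *Dicer* KO effect 0 of 22 passed edgeR's test, with 5 at an unadjusted p under 0.05, and 1 passed DESeq2's, *Tdrd5* (0.28 on the log2 scale, DESeq2 adjusted p = 0.00844).

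A list of Tudor domain genes that act outside the pathway was read for comparison. *Tdrd3*, *Snd1*, *Akap1*, *Smn1* and *Smndc1* did not pass the test in the *Ago2* comparisons. In *Dicer* KO oocytes *Akap1*, a mitochondrial anchor protein, and *Snd1*, a nuclease with a Tudor domain, had log2 fold changes of -0.37 and -0.33 (edgeR adjusted p = 0.000111 and 0.00545). The list as written also held *Tdrp*, whose name is close but whose product is no Tudor protein, and which had log2 fold changes of -0.40, -0.44 and -0.31 (edgeR adjusted p = 7.6e-05, 6.29e-05 and 0.003) in the *Ago2* ADH, *Ago2* null and *Dicer* KO comparisons.

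**Figure D4:**
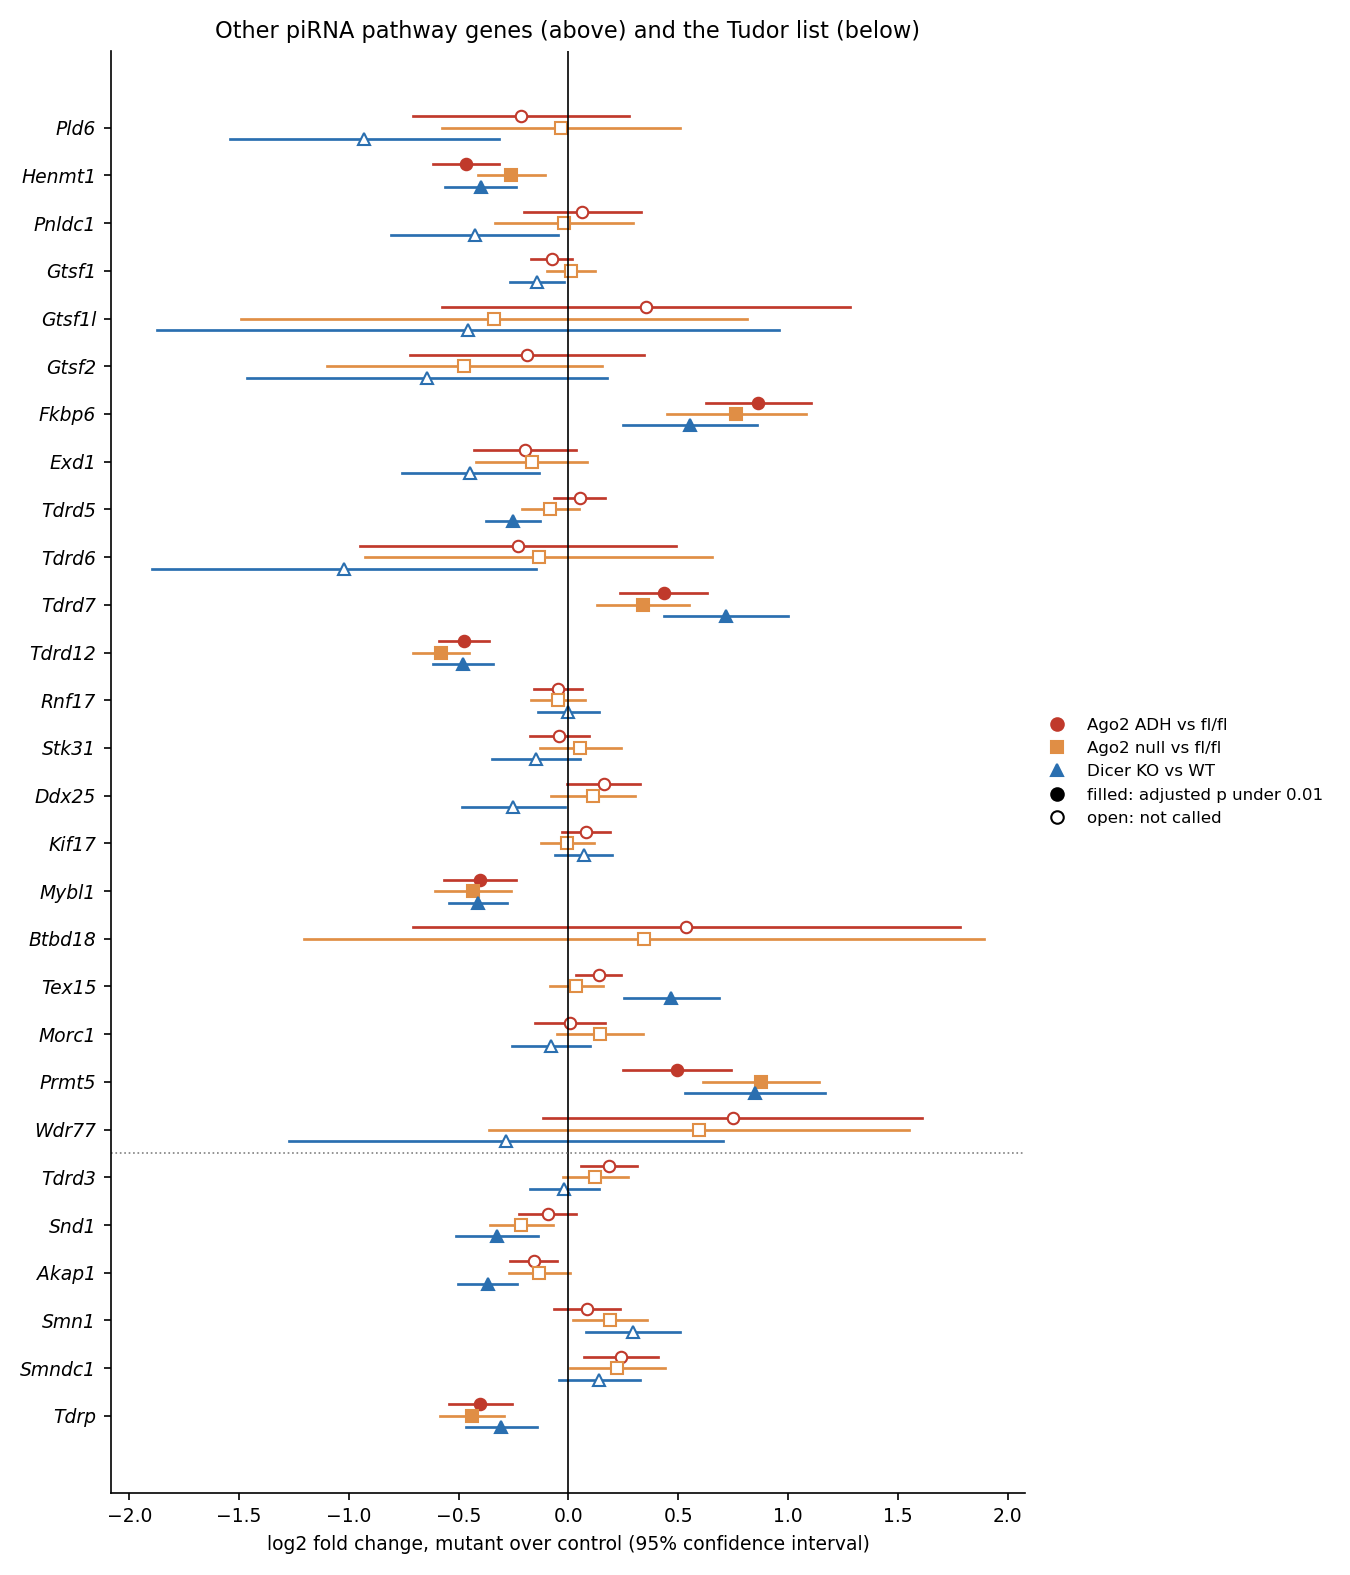
Log2 fold change (horizontal axis) with 95% confidence intervals of 22 further piRNA pathway genes and, under the dotted line, of the 6 genes of the Tudor list, mutant over control in 3 comparisons. Filled symbols have an adjusted p under 0.01; *Fkbp6*, *Tdrd7* and *Prmt5* lie to the right of 0 and *Henmt1*, *Tdrd12* and *Mybl1* to the left in all 3.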

How the data were processed

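RNA-seq counts of 14 libraries were analysed in 5 groups named by the labels. The authors deposited raw read counts per RefSeq transcript, which they made from amplified oocyte cDNA with TopHat2 2.0.7 and HTSeq 0.6.1 (versions from the submitters' processing notes) on mm10, unstranded, with a read counted on every transcript that contains it. Symbols and GRCm38 positions were matched to 26077 of 26495 IDs with RefSeq and to 117 with GENCODE, which also gave lengths, and 301 stayed unnamed. Each comparison was fitted on its own libraries with edgeR 4.0.16 in R 4.3.3: filterByExpr (minimum count 10, minimum total 15), TMM, quasi-likelihood test and Benjamini-Hochberg adjustment over all transcripts at an FDR of 1%. The standard error was the log2 fold change over the square root of F. CPM were scaled by TMM over all 14 libraries, so their ratios can differ slightly from fitted folds. All 10 members were named, with the called genes of the other pathway and Tudor lists, the 2 genes most like each member tested (offset 0.5 CPM) and single marker genes. The members and lists were chosen with earlier results of these data known. Alternatives were DESeq2 1.42.0, RLE, other filters, an FDR of 5%, 1 transcript per gene, a joint fit, a replicate block and left-out libraries. The fits were also run on simulated counts, with the same spread setting for every transcript and larger changes than those of *Tdrkh*. That run does not bear on calls of small changes. By the study's methods, the libraries of a group come from separate collections, each pooling several animals. Reads had no molecular identifiers, so floors cover counting error only. The deposited tallies of reads with several alignments may count a read more than once.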

Additional observations from a re-analysis of the deposited data

Results flagged for a closer look

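The effect of *Ago2* ADH on *Piwil2* exceeded that of *Dicer* KO by 1.66 on the log2 scale, and the effect on *Ddx4* by 0.65, each by edgeR's test of the difference between the 2 contrasts. With 1 library left out, the *Piwil2* call was lost in 4 and the *Ddx4* call in 9 of 12 fits. The controls also differed, at 2.35 CPM of *Piwil2* and 26.9 of *Ddx4* in *Ago2* fl/fl against 5.29 and 40.4 in *Dicer* WT. A difference between the effects cannot be told apart from one between the separate series of libraries. The *Dicer* WT libraries vary more in *Piwil2* than the *Ago2* fl/fl libraries (SD of 2.50 against 0.236 CPM), and without *Dicer* WT replicate 1 the *Piwil2* difference was 1.22 (edgeR adjusted p = 0.0118).

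Reads with several alignments, which no gene's count uses, stood above the control level in every mutant group. Per 100 transcript counts, their mean was 2.81 times the *Ago2* fl/fl mean in *Ago2* ADH, 2.82 times in *Ago2* null, and 2.25 times the *Dicer* WT mean in *Dicer* KO libraries, and the libraries did not overlap. The difference was not tested, and the sequences behind these reads were not analysed here.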

How the results depend on the processing

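The calls of *Piwil2*, *Ddx4* and *Mael* in both *Ago2* comparisons held in direction and threshold under every alternative run. So did those of *Mael* and *Tdrkh* in *Dicer* KO oocytes. The labels do not say whether libraries of the same replicate number were collected together. Correlations of same-numbered deviations ran from -0.142 to 0.058, and with so few libraries per group they cannot settle it. With the replicate number as a block, the counts of members called were 4, 3 and 2 (*Ddx4* in *Dicer* KO oocytes lost, 0.43, edgeR adjusted p = 0.0149), against 4, 3 and 3 without it, and 2 for the difference between effects. Leaving out libraries, that last count ran from 0 to 2, and the *Ago2* null count of other pathway genes from 3 to 5.

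At an FDR of 5%, with DESeq2 or with at least 10 counts in every library, *Tdrd9* also passed in *Ago2* ADH oocytes. *Tdrd1* in *Ago2* null oocytes passed at an FDR of 5%, with DESeq2, without the filter, with 1 transcript per gene and with all groups in one fit. Among other pathway genes, *Tdrd7* in *Ago2* null oocytes was lost without the filter, in the joint fit and with the block, *Henmt1* there with the block, and *Tex15* in *Dicer* KO oocytes with DESeq2, while in *Dicer* KO oocytes *Exd1* passed without the filter and *Pld6* in the joint fit. The 23 calls between *Ago2* ADH and *Ago2* null over all transcripts became 56 at an FDR of 5%, 81 with DESeq2, 94 without the filter, 142 with the block, and 6 to 21 with a library left out. The 692 of the difference between effects became 1638 at an FDR of 5% and 1104 with DESeq2.

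Signs turned only in differences that had not passed the test, and the cause was not tested. With libraries left out, *Piwil1* ran from -0.28 to 0.00622 (*Ago2* ADH) and from -0.0914 to 0.026 (*Ago2* null), *Mov10l1* from -0.18 to 0.14 (*Ago2* null) and from -0.0017 to 0.21 (*Dicer* KO), and *Asz1* from -0.10 to 0.0764 (*Dicer* KO). Between *Ago2* ADH and *Ago2* null, *Piwil1* ran from -0.27 to 0.0239, *Piwil2* from -0.0336 to 0.20, *Mael* from -0.0116 to 0.13, *Tdrd9* from -0.0198 to 0.23 and *Asz1* from -0.0659 to 0.20. In the difference between effects, *Piwil1* ran from -0.15 to 0.155, *Mov10l1* from -0.16 to 0.16 and *Tdrd1* from -0.0687 to 0.0399. With the block, *Mov10l1* was 0.15 in *Ago2* null oocytes and -0.00562 in the difference between effects, and *Piwil1*, *Piwil2* and *Mael* were 0.0234, -0.0427 and -0.00986 between *Ago2* ADH and *Ago2* null. In the difference between effects, *Piwil1* was 0.0211 with DESeq2 (0.0212 with RLE) and 0.00158 without the filter, *Tdrd1* was 0.0124 with DESeq2 and with RLE, and *Mov10l1* was -0.00753 with at least 10 counts in every library. Depth limits *Piwil4*, which had at most 4 counts in a library. By its shorter transcript *Ddx4* was at 9.59 CPM per kb in *Ago2* fl/fl oocytes, against 8.94.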
